A study of Homo sapiens with 18 samples.

Results

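The genes of DNA replication and of the supply of deoxynucleotides were followed in PANC-1 cells, a line from a human pancreatic ductal carcinoma, after knockdown of NAT10, the writer of N4-acetylcytidine (ac4C) in RNA. They are 45 named genes, chosen by symbol from the known parts of the replication machinery and matched to their Ensembl identifiers, out of 58302 genes in the expression table. The rule itself uses no measured value, but the list was drawn up with earlier results of these data known. The cells carried a lentiviral control shRNA vector (shCtrl) or a lentiviral shRNA against NAT10 (shNAT10), with no other treatment, and the labels name 1 shRNA vector against NAT10. RNA-seq gave 3 libraries per group, with expression as FPKM (fragments scaled to transcript length and library size), and acRIP-seq, an immunoprecipitation of RNA fragments with an antibody against ac4C, gave 1 list of peaks per group from 3 IP and 3 input libraries. The labels do not say that the libraries came from separate cultures, so that p-values measure the spread between these libraries, which may be technical.

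DNA replication starts at origins that the origin recognition complex (ORC1 to ORC6) marks and on which CDC6 and CDT1 load the MCM2 to MCM7 helicase. CDC45 and the GINS complex then switch the helicase on, polymerase alpha with primase starts each strand, polymerases delta and epsilon extend it on the PCNA ring, and FEN1 and LIG1 join the pieces of the lagging strand. Ribonucleotide reductase (RRM1 with RRM2), thymidylate synthase and thymidine kinase feed the forks with deoxynucleotides, and many of these genes are transcribed from E2F-driven promoters as cells enter S phase.

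NAT10, the targeted gene, was at an FPKM of 31.6, 27.7 and 28.6 in the shCtrl libraries and of 7.92, 8.43 and 7.90 in the shNAT10 libraries, a fall by 1.84 on the log2 scale (SE 0.08, limma adjusted p = 3.85e-05). The libraries held 15831720 to 23521762 reads by the library size behind the FPKM. All 7 markers of ductal carcinoma epithelium were at a mean FPKM of at least 1 in 1 of the groups or both, with a summed FPKM of 2818 to 3771 in shCtrl and 1525 to 1703 in shNAT10 libraries, while 1 of 6 leukocyte, 0 of 4 endothelial, 2 of 6 fibroblast and 0 of 6 acinar and islet markers reached that level. The summed FPKM was 2.28 to 2.96 and 1.41 to 1.62 for leukocyte markers, 0.470 to 0.651 and 0.306 to 0.409 for endothelial markers, 29.6 to 34.6 and 19.3 to 22.8 for fibroblast markers, and 0 to 0.320 and 0 to 0.119 for acinar and islet markers, in shCtrl and shNAT10 libraries. The shCtrl libraries differed by transcript length, taken as the median log2 difference of a library from the others of its group. Over genes with transcripts of up to 1983 bases it was 0.30 for replicate 2 of shCtrl, and over those of at least 5106 bases -0.28. Replicate 1 of shCtrl differed the other way, by -0.21 and 0.21, and the shNAT10 libraries by -0.04 to 0.05. The part of these differences in the results was not tested beyond leaving each library out and correcting for transcript length, as given with the counts.

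All 45 genes passed the filter on low values, which asked for 3 or more libraries at an FPKM of 1 or above. Of these, 21 were higher and 5 lower in shNAT10 cells at a limma adjusted p under 0.05, and 19 were not called. Over all 12982 genes tested, 20.8% were called higher and 21.2% lower, and over the 9678 genes within the members' range of mean FPKM (2.97 to 150.8) 23.1% and 22.2%. In bulk libraries, fewer cells of a kind and less RNA per cell cannot be told apart. Read against these shares, the replication genes were called higher more often (46.7%) and lower less often (11.1%) as a description, since the genes were chosen with earlier results known and no test over the list was made. The median log2 fold change of the 45 genes was 0.23, against -0.01 over all genes tested, and the values ran from -1.20 for RRM2 to 0.85 for RRM1. In 25 genes every shNAT10 library lay above every shCtrl library and in 5 genes below, where 27.9% and 28.6% of all genes tested did so. A log2 fold change beyond 1 was reached by RRM2 alone among the called members, against 6.48% of all genes tested, so that the rises were moderate in size. With 3 libraries against 3, an exact permutation test of a single gene cannot go below p = 0.1.

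The count of higher members fell to 14 without shCtrl replicate 3, to 14 without shNAT10 replicate 2 and to 14 without shNAT10 replicate 3, while the calls over all genes fell to between 1774 and 1978 higher genes in these fits from 2699. It was 25 without shCtrl replicate 2 and 27 once transcript length and GC content had been corrected for within every library. In these fits the lower members also rose, to 6 and 7. The calls over all genes rose as well, to 3303 and 3346 higher and to 3318 and 3502 lower genes. The count of lower members fell to 3 without shNAT10 replicate 3, while the lower calls over all genes fell to 1765 from 2751. Rescaling to TPM moved the median log2 fold change of all genes to 0.10 and the calls over all genes from 2699 higher and 2751 lower to 3355 higher and 2075 lower; the members were then 25 higher and 4 lower, with a median of 0.34. Of the 26 called members, 16 were called in every fit that tested them. The other 10 (GINS3, GMNN, MCM7, ORC3, ORC5, ORC6, POLD1, POLE, RFC5 and TYMS) lost the call when at least 1 library was left out, with a highest limma adjusted p between 0.0516 and 0.165.

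**Figure D1:**
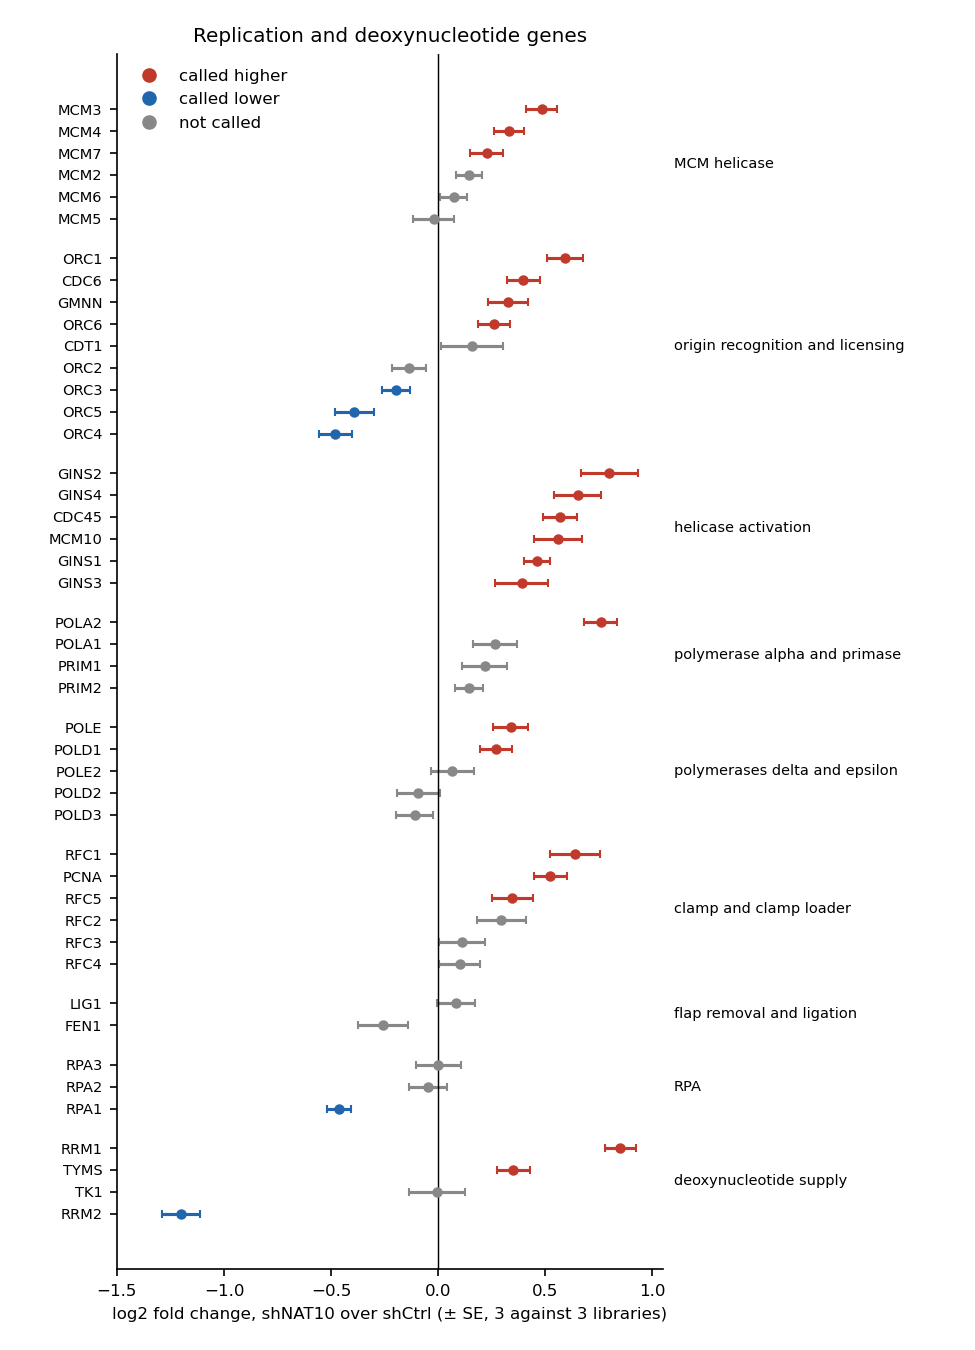
Log2 fold change of FPKM in shNAT10 over shCtrl cells for each of the 45 genes, grouped by role, with the SE as a bar (3 against 3 libraries); red genes were called higher, blue genes lower and grey genes not called. The 6 genes of helicase activation all lie to the right of 0, and RRM2 at -1.20 and RRM1 at 0.85 mark the ends of the range.

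Among the genes of deoxynucleotide supply, the subunits of ribonucleotide reductase moved in opposite directions. RRM1, which holds the catalytic and allosteric sites of the enzyme, was at an FPKM of 47.4, 42.2 and 42.0 in shCtrl libraries and of 76.8, 79.7 and 80.9 in shNAT10 libraries. This was the largest rise among the 45 genes, with a log2 fold change of 0.85 (SE 0.07, limma adjusted p = 0.000258). RRM2, the small subunit that carries the tyrosyl radical and is made in S phase, was at 16.6, 18.3 and 16.9 in shCtrl and at 6.71, 7.96 and 7.75 in shNAT10 libraries. It fell by 1.20 on the log2 scale (SE 0.09, limma adjusted p = 0.000167), the largest fall among the 45 genes, with no overlap between the groups. Of the exonic bases of RRM2, 20.2% are shared with another annotated gene, so that part of its reads may be assigned differently. The FPKM of RRM1 over that of RRM2, chosen for display after the values were seen, was 2.86, 2.30 and 2.49 in shCtrl libraries. It was 11.44, 10.02 and 10.45 in shNAT10 libraries, and the ranges did not overlap.

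TYMS, thymidylate synthase, had the highest mean FPKM of the 45 genes, with 123, 146 and 130 in shCtrl and 168, 171 and 167 in shNAT10 libraries, and rose by a log2 fold change of 0.35 (SE 0.08, limma adjusted p = 0.0108). TK1, the thymidine kinase of the salvage route, was at 37.7, 53.7 and 41.8 in shCtrl and at 44.6, 45.9 and 41.0 in shNAT10 libraries. The TK1 groups overlapped, with replicate 2 of shCtrl the highest of all 6 libraries, and the log2 fold change was -0.00 (95% interval -0.31 to 0.31). After the correction for transcript length and GC content, TK1 had a log2 fold change of 0.22 with a limma adjusted p of 0.0026. TYMS and TK1 were not tested against each other.

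**Figure D2:**
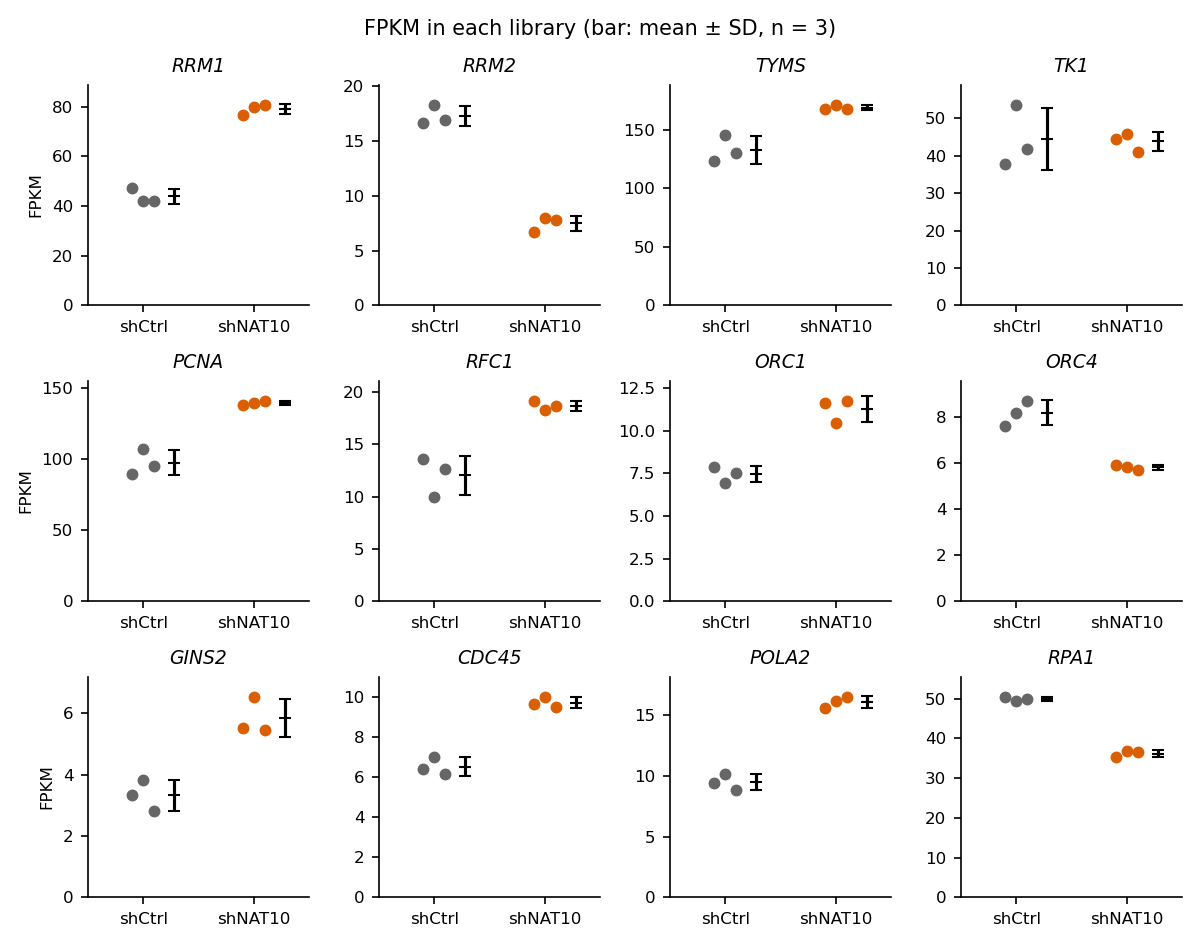
FPKM of 12 genes in each library of shCtrl and shNAT10 cells (points), with the mean and SD of 3 libraries as a bar; each panel starts at 0. RRM1, TYMS, PCNA, RFC1, ORC1, GINS2, CDC45 and POLA2 lie higher in all 3 shNAT10 libraries, RRM2, ORC4 and RPA1 lie lower, and TK1 overlaps.

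The 9 genes of origin recognition and licensing split by subunit. ORC1, the ATPase that opens the loading of the helicase, rose, with an FPKM of 7.85, 6.92 and 7.54 in shCtrl and of 11.6, 10.4 and 11.8 in shNAT10 libraries (log2 fold change 0.59, SE 0.09, limma adjusted p = 0.00194). ORC4, an ATPase-fold subunit of the ORC core, fell, with 7.62, 8.18 and 8.71 in shCtrl and 5.92, 5.83 and 5.71 in shNAT10 libraries (log2 fold change -0.48, SE 0.08, limma adjusted p = 0.00329). The groups of ORC1 and of ORC4 did not overlap, in opposite directions. ORC5, the neighbour of ORC4 in the core, was at 9.88, 11.1 and 10.03 in shCtrl and at 7.98, 8.44 and 7.14 in shNAT10 libraries (log2 fold change -0.39, SE 0.09, limma adjusted p = 0.0130). ORC3 was at 37.8, 35.4 and 38.5 in shCtrl and at 31.8, 33.5 and 32.1 in shNAT10 libraries (log2 fold change -0.20, SE 0.06, limma adjusted p = 0.0450). These falls were smaller than the fall of RRM2. The call of ORC3 was lost when any library other than shCtrl replicate 2 was left out, with limma adjusted p of 0.0801 to 0.153, and with TPM (log2 fold change -0.09, limma adjusted p = 0.421). It was also lost with no filter, quantile normalization, no mean-variance trend, voom and the replicate block, with limma adjusted p of 0.0541 to 0.0923. The call of ORC5 was lost without shNAT10 replicate 3 (limma adjusted p = 0.0527). ORC2 was at 16.9, 15.2 and 17.9 against 15.5, 14.95 and 14.94, with overlap and a log2 fold change of -0.14 (95% interval -0.32 to 0.05). It was called lower at -0.20 without shCtrl replicate 2 and at -0.23 with the correction for length and GC content.

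Of the other licensing genes, CDC6, which loads the helicase with ORC, rose by a log2 fold change of 0.40, GMNN (geminin), the inhibitor of CDT1, by 0.33, and ORC6 by 0.26. CDT1, the partner of CDC6 in loading, had a log2 fold change of 0.16 (95% interval -0.18 to 0.50) and was not called. The FPKM of ORC1 over that of ORC4 was 1.03, 0.846 and 0.866 in shCtrl and 1.96, 1.79 and 2.06 in shNAT10 libraries, a pair also chosen after the values were seen.

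The MCM2 to MCM7 genes, which encode the 6 subunits of 1 helicase ring, had log2 fold changes between -0.02 and 0.48. Of these genes 3 were called higher and 0 lower, against 20.8% and 21.2% of all genes tested. MCM3 moved the most, from an FPKM of 39.6, 45.2 and 40.5 in shCtrl to 59.8, 58.7 and 56.5 in shNAT10 libraries (log2 fold change 0.48, SE 0.07, limma adjusted p = 0.00238). MCM5 moved the least, from 16.959, 20.6 and 16.9 to 18.2, 18.1 and 17.1, with overlapping groups and a log2 fold change of -0.02 (95% interval -0.25 to 0.20). MCM4 rose by 0.33 and MCM7 by 0.23, MCM2 had a log2 fold change of 0.14 with groups that did not overlap but no call, and MCM6 had one of 0.07. The 95% interval of MCM3 (0.31 to 0.66) and that of MCM5 do not meet, while the difference between these genes was not tested.

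All 6 genes that activate the helicase (CDC45, GINS1, GINS2, GINS3, GINS4 and MCM10) were called higher, against 20.8% of all genes tested. In none of them did the groups overlap, where 27.9% of all genes tested lay apart and higher. The 6 genes had a median log2 fold change of 0.56, the highest of the 9 role groups. GINS2 had the largest rise, from an FPKM of 3.34, 3.83 and 2.82 to 5.53, 6.54 and 5.46 (log2 fold change 0.80, SE 0.14, limma adjusted p = 0.00370). GINS4 went from 2.28, 2.72 and 2.59 to 3.87, 3.88 and 4.32 (log2 fold change 0.65, SE 0.11, limma adjusted p = 0.00362). These are low-expressed genes, and GINS3 had the lowest mean FPKM of the 45. CDC45, which binds the MCM ring with GINS, went from 6.43, 7.05 and 6.16 to 9.67, 10.043 and 9.53 (log2 fold change 0.57, SE 0.08, limma adjusted p = 0.00165). MCM10, which acts when the helicase starts to move, went from 5.35, 4.34 and 4.97 to 6.47, 7.54 and 7.74 (log2 fold change 0.56, SE 0.11, limma adjusted p = 0.00727). The shNAT10 libraries were the 3 highest for each of these genes. GINS3 rose the least of the 6, from 2.54, 2.56 and 2.55 to 3.77, 2.88 and 3.53 (log2 fold change 0.39, SE 0.12, limma adjusted p = 0.0410). Its call was lost without shCtrl replicate 1, shCtrl replicate 3, shNAT10 replicate 1 or shNAT10 replicate 3, with limma adjusted p of 0.0702, 0.104, 0.141 and 0.133, and with no filter (limma adjusted p = 0.0943) or the replicate block (limma adjusted p = 0.0627). GINS1, the fourth GINS subunit, rose by a log2 fold change of 0.46.

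Of polymerase alpha and primase, 1 of 4 genes was called higher, a share of 25% that lay near the 20.8% of all genes tested. POLA2, the accessory subunit of polymerase alpha, went from an FPKM of 9.41, 10.2 and 8.86 to 15.6, 16.1 and 16.5 (log2 fold change 0.76, SE 0.08, limma adjusted p = 0.000496). Of its exonic bases, 35.1% are shared with another annotated gene, and how the counting treated reads there is not given in the sources used here. PRIM2, the large primase subunit, went from 15.8, 15.5 and 16.6 to 17.9, 17.8 and 17.2, a log2 fold change of 0.14 (95% interval -0.01 to 0.30) in groups that did not overlap. It was called higher with TPM (0.25, limma adjusted p = 0.039) and with the length and GC correction (0.15, limma adjusted p = 0.0421). POLA1, the catalytic subunit, had a log2 fold change of 0.26 and PRIM1 one of 0.22, without a call.

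Of the 5 members in polymerases delta and epsilon, the catalytic subunits POLE and POLD1 were called higher, and POLE2, POLD2 and POLD3 were not called. POLE went from an FPKM of 14.6, 12.2 and 13.5 to 17.2, 16.9 and 16.8 (log2 fold change 0.34, SE 0.08, limma adjusted p = 0.0154), and POLD1 rose by a log2 fold change of 0.27. The call of POLE was lost without shCtrl replicate 3 or any 1 of the shNAT10 libraries, with limma adjusted p of 0.0506 to 0.0617. POLE2 went from 6.27, 6.87 and 5.74 to 7.16, 6.09 and 6.53 with overlap (log2 fold change 0.07, 95% interval -0.17 to 0.30). POLD2 and POLD3 had log2 fold changes of -0.09 and -0.11.

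PCNA, the sliding clamp that holds polymerases on DNA, went from an FPKM of 89.8, 107 and 95.3 to 138, 140 and 141, with a log2 fold change of 0.52 (SE 0.08, limma adjusted p = 0.00227), and was called in every fit. RFC1, the large subunit of the clamp loader, went from 13.6, 9.97 and 12.6 to 19.2, 18.2 and 18.6 (log2 fold change 0.64, SE 0.12, limma adjusted p = 0.00523). RFC4 went from 35.1, 43.5 and 38.1 to 39.1, 43.2 and 42.5 (log2 fold change 0.10, 95% interval -0.12 to 0.32), and was called higher with TPM (0.21, limma adjusted p = 0.0491) and without shCtrl replicate 2 (0.18, limma adjusted p = 0.0449). The groups of RFC1 lay apart and those of RFC4 overlapped. RFC5 rose by a log2 fold change of 0.35, and RFC2 (0.30) and RFC3 (0.11) were not called.

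The genes that act on single strands and finished fragments held no called rise. RPA1, the large DNA-binding subunit of the single-strand binding protein, went from an FPKM of 50.5, 49.4 and 49.8 to 35.2, 36.7 and 36.6, and fell by 0.46 on the log2 scale (SE 0.06, limma adjusted p = 0.00108). It was called lower in every fit, with log2 fold changes from -0.54 with the length and GC correction to -0.36 with TPM. RPA3, the smallest subunit, went from 18.0, 23.8 and 20.6 to 20.5, 21.1 and 20.4 (log2 fold change 0.00, 95% interval -0.25 to 0.25), and RPA2 had a log2 fold change of -0.05. RPA1 was thus the 1 subunit of 3 whose groups did not overlap. FEN1, the nuclease that trims flaps, went from 23.2, 31.4 and 25.6 to 23.7, 21.3 and 21.5, with a log2 fold change of -0.26 (95% interval -0.54 to 0.02). LIG1, the ligase of the lagging strand, went from 11.1, 12.1 and 10.4 to 12.5, 12.1 and 10.975, with a log2 fold change of 0.08 (95% interval -0.13 to 0.29). Both overlapped between the groups, and FEN1 was called lower at -0.36 without shCtrl replicate 1.

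Other genes of the pathway, 110 in all, were tested in the same fit, and 47 were higher (42.7%) and 15 lower (13.6%), against 20.8% and 21.2% of all genes tested. Their median log2 fold change was 0.19. Of 34 other fork and origin factors, 18 were higher and 3 lower. DTL, the adaptor that targets CDT1 for destruction, rose from a mean FPKM of 6.82 ± 0.48 to 14.8 ± 0.54 (SD, n = 3), a log2 fold change of 1.11. POLE3, a histone-fold subunit of polymerase epsilon, was at a mean FPKM of 32.6 ± 0.69 in shCtrl and 12.6 ± 0.31 in shNAT10 libraries (SD, n = 3) and fell by 1.36 on the log2 scale, a larger fall than that of RRM2. Of 10 histone chaperones at the fork, 8 were higher, with CHAF1B (log2 fold change 0.72) and CHAF1A (0.69) of the chromatin assembly factor first, and 1 was lower (ASF1A, -0.26). Of 35 other genes of nucleotide synthesis, 9 were higher and 7 lower, with a median log2 fold change of 0.01 and shares of 25.7% and 20% near those of all genes tested. The log2 fold changes of this list ran from -1.08 to 0.81, and the genes named from it are all falls. DCK, the deoxycytidine kinase, and PPAT and PAICS of purine synthesis had log2 fold changes of -0.97, -0.89 and -0.69. NME2, a nucleoside diphosphate kinase, fell by 1.08, with 22.9% of its exonic bases shared with another gene. CHAF1B, CHAF1A, ASF1A, PPAT and PAICS were picked after their values were seen. The count of higher genes among the 110 was 28 to 31 when shCtrl replicate 3 or any 1 of the shNAT10 libraries was left out, and that of lower genes 9 without shNAT10 replicate 2. Over all genes, the same fits gave 1774 to 1978 higher calls, and 1897 lower ones without shNAT10 replicate 2.

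**Figure D3:**
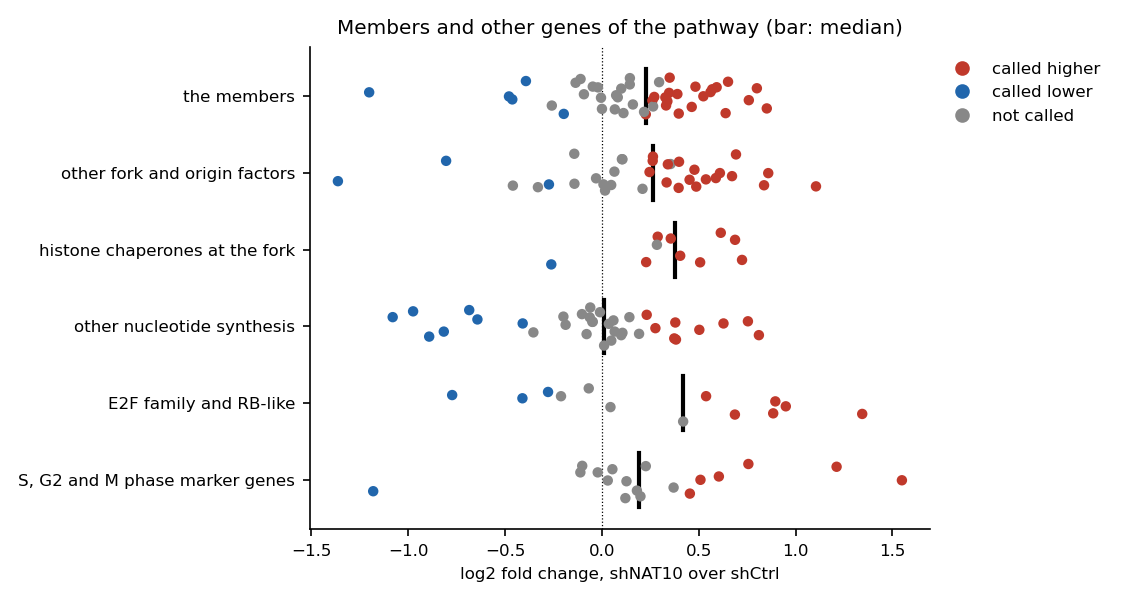
Log2 fold change in shNAT10 over shCtrl cells of the 45 members and of 5 lists of other pathway genes, 1 point a gene, coloured by call, with the median of each list as a black bar; the height of a point within a row carries no value. The bar of the members lies at 0.23, that of the histone chaperones at 0.38 and that of other nucleotide synthesis at 0.01.

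The acRIP peaks of the members were counted next. A peak was listed in shCtrl cells on 24 of the 45 genes (53.3%, 95% Wilson interval 39.1% to 67.1%), where 49.9% of the 12834 genes at a mean FPKM of at least 1 had a peak. In shNAT10 cells it was listed on 20 genes (44.4%, 30.9% to 58.8%), against 48.0% of all such genes, and in both lists on 15 genes (33.3%, 21.4% to 47.9%), against 34.0%. The shares of the members lay near those of all such genes. Protein-coding genes within the members' range of mean FPKM had a peak in 59.5% in shCtrl, 57.4% in shNAT10 and 41.8% in both lists. The members' shares lay below these, and the intervals of the members hold them. The intervals cover counting error only, and with 1 list per group no spread between replicates can be given.

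A peak in the shCtrl list alone was held by 9 genes, namely CDC6, CDT1, MCM2, MCM10, POLD1, POLD2, RFC4, RPA1 and TK1. A peak in the shNAT10 list alone was held by 5 genes, namely ORC6, POLA1, POLA2, RPA2 and TYMS. The 31 shCtrl and 29 shNAT10 peaks of the members overlapped by at least 1 base in 4 genes, MCM3, MCM4, MCM7 and RPA3, while in the other 11 genes with a peak in both lists the peaks lay apart. An overlap was thus found for 12.9% of the members' peaks in shCtrl cells (5.1% to 28.9% by the same kind of interval), against 25.6% of all shCtrl peaks, and 13.8% of their shNAT10 peaks (5.5% to 30.6%) against 27.4%. Both intervals hold the share of all peaks. The peaks of RRM2, for example, lay at chr2:10129565-10129745 in shCtrl and at chr2:10130313-10130522 in shNAT10 cells, on GRCh38 and both in the 3′ UTR.

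How the fold enrichment of IP over input was scaled in each list is not given in the sources used here. It was 4.03 to 536 over the members' shCtrl peaks, with a median of 21.0 against 49.3 over the whole list. Over their shNAT10 peaks it was 1.73 to 563, with a median of 12.2 against 45.2. Thus 10 of 31 and 8 of 29 member peaks were in the upper 50% of their lists. The 5 highest in shCtrl cells were on MCM10 (536), RFC2 (241), TK1 (232), POLD3 (141) and CDT1 (135). The 5 highest in shNAT10 cells were on POLD3 (563), MCM3 (535), RPA3 (411), PRIM2 (268) and POLA1 (212). POLD3 was in both sets, with peaks that did not overlap. Placed by midpoint on the gene's longest coding transcript, 19 shCtrl peaks lay in the CDS, 9 in the 3′ UTR, 1 in the 5′ UTR and 2 off this transcript, and 19 shNAT10 peaks lay in the CDS, 4 in the 3′ UTR, 0 in the 5′ UTR and 6 off it.

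**Figure D4:**
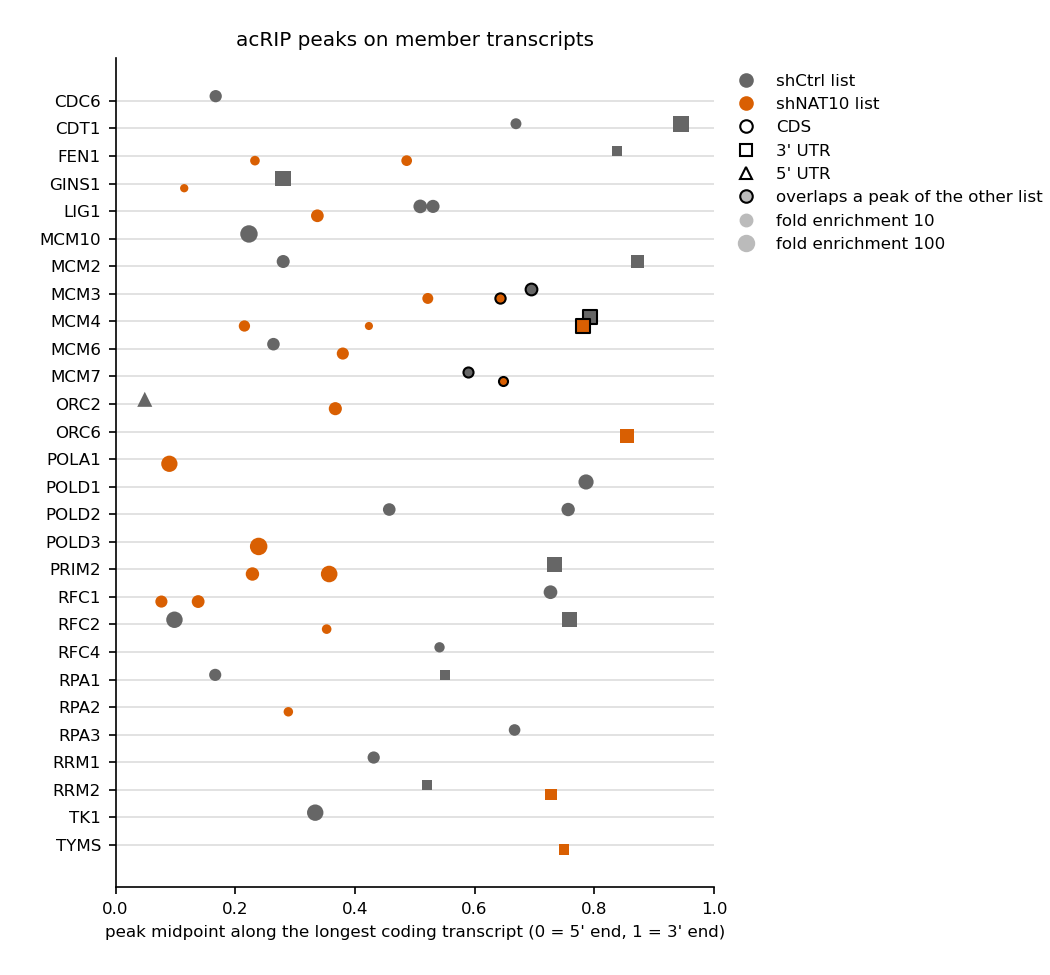
Midpoint of each acRIP peak along the longest coding transcript of its gene, from the 5′ end (0) to the 3′ end (1), in shCtrl (grey) and shNAT10 (orange) cells; the symbol gives the part of the transcript, its size the logarithm of the fold enrichment, and a black edge an overlap with the other list. Edged symbols are on MCM3, MCM4 and MCM7; 2 shCtrl and 6 shNAT10 peaks off this transcript, those of RPA3 that overlap among them, are not drawn.

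Peak and expression can be set side by side for the members. The 15 genes with a peak in both lists had a median log2 fold change of 0.14, the 9 with a peak in shCtrl alone 0.14, the 5 with a peak in shNAT10 alone 0.26 and the 16 with no peak 0.33. Of those 16, 9 were called higher and 3 lower, so that called genes were found with and without a peak. The 5 called falls were spread likewise, with RRM2 in both lists, RPA1 in the shCtrl list and ORC3, ORC4 and ORC5 in neither. The genes without a peak had a median mean FPKM of 9.79 and those with a peak in both lists one of 19.4. Over all genes tested, with or without a peak, 20.8% were called higher and 21.2% lower. Calls by peak status were not counted over all genes, and the differences between these sets of members were not tested.

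Sequences of 5 member peaks that lie wholly in the CDS are shown. They are the strongest such peak of each list (MCM10 and POLD3), a peak rich in C repeats (CDT1) and an overlapping pair on MCM3. The CDT1 peak had the most C repeats among the members' peaks of at most 300 bases wholly in the CDS whose sequence was read. The sequences were read from GENCODE v29 transcripts on GRCh38, spliced and on the strand of the RNA, with T for U. In the first 3, capitals mark each C of a run of 4 repeats of C and any 2 bases (CNNCNNCNNCNN), a longer form of the ac4C motif, on that strand only and with overlapping matches counted. MCM10 was at chr10:13180506-13183070 (plus strand, 240 bases), POLD3 at chr11:74620037-74625564 (plus strand, 210 bases) and CDT1 at chr16:88807465-88808275 (plus strand, 179 bases), with introns left out.
MCM10, shCtrl: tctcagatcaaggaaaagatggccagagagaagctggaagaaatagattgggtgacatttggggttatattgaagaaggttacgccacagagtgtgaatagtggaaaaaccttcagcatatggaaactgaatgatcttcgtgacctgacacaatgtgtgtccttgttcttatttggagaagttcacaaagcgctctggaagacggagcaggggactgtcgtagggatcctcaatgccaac
POLD3, shNAT10: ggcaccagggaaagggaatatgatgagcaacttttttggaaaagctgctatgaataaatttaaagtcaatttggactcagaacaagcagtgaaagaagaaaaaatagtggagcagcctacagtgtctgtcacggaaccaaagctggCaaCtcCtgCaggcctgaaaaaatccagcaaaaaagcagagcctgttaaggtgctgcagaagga
CDT1, shCtrl: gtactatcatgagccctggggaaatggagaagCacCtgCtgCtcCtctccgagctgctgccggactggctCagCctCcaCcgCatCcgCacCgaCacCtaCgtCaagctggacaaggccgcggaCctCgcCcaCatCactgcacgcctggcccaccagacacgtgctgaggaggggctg

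The MCM10 peak, with the highest fold enrichment of the members in shCtrl cells, held 0 matches of this repeat and 16.7% C, the POLD3 peak 1 match and 17.6% C, and the CDT1 peak, with a fold enrichment of 6.34, 13 matches and 36.9% C. The repeat was counted over peaks of at most 300 bases that lie wholly in the CDS. Of the members' peaks read, 5 of 10 in shCtrl and 4 of 13 in shNAT10 cells held it, against 54.5% of 3810 and 52.5% of 3605 such peaks of all genes. The shNAT10 peaks of MCM4 wholly in the CDS, of 271 and 180 bases, were not read and are not among the 13. A match is a description of these letters and not a site of ac4C.

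The MCM3 pair shows how far the lists met. In the lines that follow capitals mark the 61 bases that the peaks share, at chr6:52266133-52269183 in shCtrl (minus strand, 300 bases, fold enrichment 9.72) and chr6:52269123-52272347 in shNAT10 cells (minus strand, 151 bases, fold enrichment 4.51).
MCM3, shCtrl: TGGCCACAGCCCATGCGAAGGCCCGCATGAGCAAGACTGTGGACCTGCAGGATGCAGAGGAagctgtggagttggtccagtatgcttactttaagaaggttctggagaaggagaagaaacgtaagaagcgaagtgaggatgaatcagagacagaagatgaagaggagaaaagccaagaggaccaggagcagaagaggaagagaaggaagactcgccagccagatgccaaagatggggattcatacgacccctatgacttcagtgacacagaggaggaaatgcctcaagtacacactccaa
MCM3, shNAT10: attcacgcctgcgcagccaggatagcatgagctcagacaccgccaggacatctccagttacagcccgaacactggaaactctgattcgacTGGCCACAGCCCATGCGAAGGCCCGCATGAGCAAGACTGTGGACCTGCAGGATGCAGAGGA
The shared bases are the first of the shCtrl peak and the last of the shNAT10 peak in the direction of the RNA, so that the shNAT10 peak lies toward the 5′ end.

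The promoters of the members were searched for the motifs of factors known to drive replication genes. RefSeq windows of GRCh38.p14, from 250 bases before to 50 bases after the start of transcription, matched 39 of the 45 genes (50 windows), and 35116 windows of 27305 genes served as the comparison. The E2F motif (TTT, then 2 letters that are each C or G, then CGC), searched on both strands, was in a window of 19 members (48.7%) and of 3.99% of all genes in the table. The CCAAT box was in 24 members (61.5%) against 39.7%, the GC box GGGCGG in 29 (74.4%) against 48.3%, the E-box CACGTG in 6 (15.4%) against 8.77% and the CHR element TTTGAA in 1 (2.56%) against 18.2%. The members' windows had a median GC content of 65.3% against 58.7% over all windows. No motif contains another, though matches can share end bases. These are counts of letters, with no test and no measure of binding.

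Of the 19 members with an E2F motif, 11 were called higher and 1 lower, with a median log2 fold change of 0.33. Of the 20 without, 8 were higher and 4 lower, with a median of 0.18. The CCAAT box gave a like split. Of the 24 members with it, 15 were higher and 3 lower (median 0.33), and of the 15 without, 4 were higher and 2 lower (median 0.14). Over all genes tested, 20.8% were called higher and 21.2% lower. Calls by motif were not counted over all genes, and the differences between the members with and without a motif were not tested. The upstream 250 bases of 3 members are shown, for POLE with an E2F motif and CCAAT boxes, and for MCM10 and RRM1, among the largest rises, with CCAAT boxes and no E2F motif in the window. Capitals mark the E2F motif and the CCAAT box on either strand, read on the strand of the gene. They lie at chr12:132687343-132687592 (POLE, minus strand), chr10:13161308-13161557 (MCM10, plus strand) and chr11:4094435-4094684 (RRM1, plus strand).
POLE: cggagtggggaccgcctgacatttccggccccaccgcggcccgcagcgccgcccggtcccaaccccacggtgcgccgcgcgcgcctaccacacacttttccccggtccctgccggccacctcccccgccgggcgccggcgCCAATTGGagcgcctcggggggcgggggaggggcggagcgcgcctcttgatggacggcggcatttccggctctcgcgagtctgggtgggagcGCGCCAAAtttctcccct
MCM10: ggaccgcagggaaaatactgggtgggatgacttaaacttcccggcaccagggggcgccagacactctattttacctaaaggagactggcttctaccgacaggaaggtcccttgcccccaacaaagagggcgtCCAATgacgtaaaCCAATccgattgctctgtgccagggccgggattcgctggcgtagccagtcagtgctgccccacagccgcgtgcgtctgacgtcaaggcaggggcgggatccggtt
RRM1: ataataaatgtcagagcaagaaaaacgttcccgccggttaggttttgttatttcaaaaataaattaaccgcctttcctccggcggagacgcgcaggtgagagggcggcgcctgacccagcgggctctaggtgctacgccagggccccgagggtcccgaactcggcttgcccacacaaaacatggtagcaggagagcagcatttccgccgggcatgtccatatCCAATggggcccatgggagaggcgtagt
In POLE the E2F motif starts at position -18 from the start of transcription on the opposite strand, and CCAAT boxes on opposite strands start at -110 and -107 and overlap. In MCM10 the boxes start at -118 and -105, and in RRM1 the box starts at -28.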

How the data were processed

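PANC-1 cells with shCtrl or shNAT10 were compared by RNA-seq (3 libraries per group, stranded mRNA kit) and acRIP-seq (3 IP and 3 input libraries per group, 1 peak list per group). Samples were grouped by their labels. The submitters' processing notes name HISAT2, HTSeq 0.11.0, DESeq2 1.22.2 and GRCh38, with no role given. The authors counted reads on Ensembl genes and deposited FPKM values. Whole reads could be recovered, since 99.9% of the values above 0 lay within 0.01 of a whole number of reads when the length of the longest transcript in GENCODE v29 (or, for genes where that length failed, another whole length) was used, as for 44 of 45 members. Per the file headers, the deposited peak lists hold a fold enrichment of IP over input as a ratio, a p-value and its log10, which served as a score to rank peaks. The peak caller is not given in the sources used here.

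Log2 of FPKM plus 0.1 was tested with limma 3.58.1 (mean-variance trend) in R 4.3.3 for the 12982 genes at an FPKM of 1 or above in 3 or more libraries. P-values were adjusted over all of them after Benjamini and Hochberg, with a threshold of 0.05 for a call. Fold changes are on this scale and understate those of low genes. Intervals of shares are 95% Wilson intervals. In simulated data of this comparison (12982 genes, 200 changed), 49, 145 and 188 genes were called at a log2 change of 0.5, 1 and 2, and 0 with none changed. Peaks were placed on each gene's longest coding transcript (GENCODE v29), and an overlap of at least 1 base on the same strand counted as shared. Where a spliced peak had several blocks, 99.8% of the block starts after the first fell on an annotated exon start. Promoter sequences are from RefSeq. Python 3.11.15, pandas 2.3.3, NumPy 2.4.6, SciPy 1.17.1 and matplotlib 3.10.9 were used.

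The members and lists were chosen with earlier results of these data known. Named with values in every library are the 8 largest called rises, all called falls and the genes with the largest and smallest absolute change in each role. The genes in 1 peak list only, those with the 5 highest peaks per list and, of other pathway genes, the 4 largest called rises and falls are also named. PCNA, TYMS and a few other genes were added after their values were seen. The alternatives were a pseudocount of 1, the replicate block, no filter or a minimum FPKM of 5, no trend, quantile normalization, TPM, centring on the median, voom on the recovered reads and each library left out, for peaks the upper 50% by fold or by p-value, a reciprocal overlap of 50% and genes at an FPKM of at least 5, and for motifs the strand of the gene only. The correction for length and GC content by splines, the C repeat and the ratios of subunits were chosen after seeing the data.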

Additional observations from a re-analysis of the deposited data

How the results depend on the processing

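Among 33 named genes, 0 of the 24 called ones turned their direction under any alternative, and 4 of them lost the call in at least 1. Values near 0 changed sign without a call, except TK1 with the length and GC correction. MCM5 had a log2 fold change of 0.087 with TPM and 0.00083 with the length and GC correction, and of -0.071 to 0.075 with a library left out. RPA3 was at -0.00029 with a pseudocount of 1, -0.0042 with median centring and -0.0021 with voom on the recovered reads, and between -0.098 and 0.1 with a library left out. TK1 was at 0.014 with quantile normalization, 0.10 with TPM and 0.22 with the length and GC correction, and at -0.11 to 0.14 with a library left out. The cause was not tested.

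With a library left out, the members had 14 to 25 higher and 3 to 6 lower calls, and the 110 other pathway genes 28 to 58 higher and 9 to 17 lower. Over all genes, these fits gave 1774 to 3303 higher and 1765 to 3318 lower calls. NAT10 stayed between -1.88 and -1.74 on the log2 scale under every alternative. Without a filter on expression 17 members were higher and 4 lower, with 2241 and 2330 calls over all genes.

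With the replicate number as a block, 18 members were higher and 4 lower, and 40 and 12 of the other pathway genes, with 2524 and 2603 calls over all genes. The labels give the groups the same numbers, but the deviations of same-numbered libraries correlated by -0.043, 0.064 and 0.11, not all over 0.1, so that the numbers were not taken to pair the libraries. With the block ORC3 and GINS3 lost their calls among the named genes.

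When only the upper 50% of each list by fold enrichment was kept, 9 members had a peak in shCtrl, 7 in shNAT10 and 2 in both lists; among the 50% with the lowest p-values these were 12, 7 and 3, as each alternative keeps fewer peaks. With a reciprocal overlap of 50%, 2 shCtrl peaks were shared in place of 4. On the strand of the gene only, the E2F motif was in 8 members (2.17% of all genes), the CCAAT box in 15 and the CHR element in 0.

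Expression rests on 3 libraries per group of 15831720 to 23521762 reads. In simulated data with 200 of 12982 genes changed, 49 of 200 changes of 0.5 on the log2 scale were called. In the measured data 2699 genes were called higher and 2751 lower, and the adjusted p depends on how many genes change. The simulated share of calls therefore does not carry over to these data. The 19 members not called had log2 fold changes of -0.26 to 0.30. Their intervals reached from -0.535 to 0.563, so that a missing call does not show that a gene was unchanged. The lists give no reads, and the depth behind a peak is unknown.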

Other observations

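The genes that control entry into S phase, the E2F family with its partners and the RB-like proteins, were called higher more often than lower. Of 13 genes, 6 were higher (46.2%) and 3 lower (23.1%) in shNAT10 cells, against 20.8% and 21.2% of all genes tested, so that the share of falls lay near that of all genes, with a median log2 fold change of 0.42. TFDP1, the dimer partner of the E2F factors, went from a mean FPKM of 34.2 ± 0.47 to 63.3 ± 1.43 (SD, n = 3), a log2 fold change of 0.88, and E2F1, an activator of S-phase genes, had one of 0.90. RBL1 (p107), an RB-like repressor, had the largest rise of the list, from 2.47 ± 0.45 to 6.35 ± 0.255 (SD, n = 3), a log2 fold change of 1.34. E2F8, a repressor of the family, had a log2 fold change of 0.95. E2F5, a factor that works with the RB-like proteins, fell by 0.77. Activators and repressors were thus both among the genes that rose.

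Of 18 markers of S, G2 and M phase, 6 were higher (33.3%) and 1 lower (5.56%), against 20.8% and 21.2% of all genes tested. BIRC5 (survivin), of the chromosomal passenger complex, went from a mean FPKM of 16.5 ± 2.56 to 48.1 ± 1.42 (SD, n = 3), a log2 fold change of 1.55, and CENPF, a kinetochore protein, from 27.0 ± 6.29 to 61.6 ± 3.46 (SD, n = 3), one of 1.21. The 1 lower gene was CCNE2, a cyclin of the G1 to S transition rather than of S, G2 or M phase. It went from 3.23 ± 0.30 to 1.37 ± 0.17 (SD, n = 3), a fall by 1.18. CDC20, PLK1 and CCNB1 had log2 fold changes of -0.02, -0.11 and 0.05 and were not called. The genes other than RBL1, BIRC5, CENPF and CCNE2 were picked here after their values were seen, and all calls come from the same limma fit as those of the members.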
